A study of Arabidopsis thaliana with 8 samples.

Results

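Transcripts of 3 Arabidopsis thaliana genes were followed in rosettes of the yda-2 mutant and of wild type. AT2G05540 and AT4G29020 encode glycine-rich proteins, and AT2G20870 encodes a putative cell wall protein. They were picked by locus from 3592 genes that the array's annotation names through single-gene probe sets. They are read by 4 of the 8297 probe sets on the array, with 2 for AT2G20870, and all 4 passed the filter on low signal. The genes were picked with the genotype difference of an earlier analysis of these arrays known, so their genotype differences are given below as a description and carry no test.

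The mutant group carried yda-2, a mutant form of the YODA gene (YDA), with 4 arrays, and the control group was wild type (WT), with 4 arrays. Both were soil-grown under constant light at 22 °C, and RNA came from everything above ground at the rosette stage, before bolting. Each array held a separate biological replicate, and replicates were grown and harvested at different times. Same-numbered yda-2 and WT arrays are called a pair here, and the replicate number is taken to stand for the harvest. The labels name no transgene or further allele, and they give neither the ecotype nor the number of plants in a sample.

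Glycine-rich proteins are a loose plant class defined by long runs of glycine repeats. Many carry a signal peptide and are secreted into the cell wall, where they act as structural or signalling components alongside extensins and proline-rich proteins. Other members of the class stay in the cell and bind RNA. YDA is a MAPKKK, the entry kinase of a mitogen-activated signalling cascade, and it holds back entry into the stomatal lineage of the leaf epidermis and also acts in the embryo and in organ growth.

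Values are the deposited signals of a probe set, scaled by the authors to a common average of 500, on a linear scale unless log2 is stated. Precision is limited by the few arrays in each group. WT replicate 2 stood apart: its mean correlation with the other arrays over all probe sets without controls was 0.851, against 0.896 to 0.936 for the rest. The arrays of replicates 1 and 2 had maximum signals between 22519 and 33920 and lower quartiles between 34.5 and 47.6, while those of replicates 3 and 4 had maxima between 6226 and 10422 and lower quartiles between 22.6 and 28.6. The nuclear photosynthesis genes, which mark green tissue, had 7 of 47 members named on the array, and the summed signal of their 10 probe sets ran between 30108 and 160197 in yda-2 and between 32501 and 162854 in WT. The sum was lower in yda-2 in every pair, at 0.984, 0.820, 0.588 and 0.926 of WT in pairs 1 to 4. The mean log2 signal of the same probe sets was lower in yda-2 in pairs 1 to 3. In pair 4 it was higher, at 11.01 in yda-2 and 10.93 in WT. Of the 10 log2 differences, 9 were below 0, with a median of -0.28. LHCB4.3, a light-harvesting protein gene, was lower in yda-2 in 4 of 4 pairs, as were 7.1% of all tested probe sets. Its log2 difference was -1.08. None of the 10 passed the genotype test (limma, adjusted p under 0.05), with or without the pair as a block (lowest limma adjusted p = 0.119 with the block), against 0.0418% of all tested probe sets and 0.188% with the block. At an unadjusted 0.05 there was 1 of 10 in either fit, against 3.22% and 7.1%. The harvest test described below called 8 of the 10, against 8.29% of all. The part of green tissue in the values below was not tested. No probe set was named for any of the 9 root, 8 flower and seed or 7 guard cell markers, so other cell types could not be checked. In whole rosettes, fewer cells of a type and less RNA per cell cannot be told apart.

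AT2G05540 was higher in yda-2 than in WT in every pair. Its signal was 856.1, 2090.3, 1219.5 and 1334.9 in yda-2 replicates 1 to 4, against 356.3, 391.5, 502.6 and 463.5 in the same-numbered WT replicates. The lowest yda-2 array lay above the highest WT array. The means were 1375 ± 519 in yda-2 and 428.5 ± 66.6 in WT (SD, n = 4 each), a ratio of 3.21. The difference of yda-2 minus WT on the log2(signal + 16) scale was 1.59 (SE 0.28, and SE 0.23 with the pair as a block). It was the only one of the 4 probe sets whose groups did not overlap. Of all 4788 tested probe sets, 1.73% had every yda-2 value above every WT value, 0.647% had every yda-2 value below, and 2.38% did either. By pair the yda-2 signal was 2.40, 5.34, 2.43 and 2.88 times that of WT. The pair of replicate 2 stood out through its yda-2 array, which was 0.64 above the next yda-2 array on the log2 scale. The WT signals spanned a ratio of 1.41 between highest and lowest, and the yda-2 signals a ratio of 2.44.

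**Figure D1:**
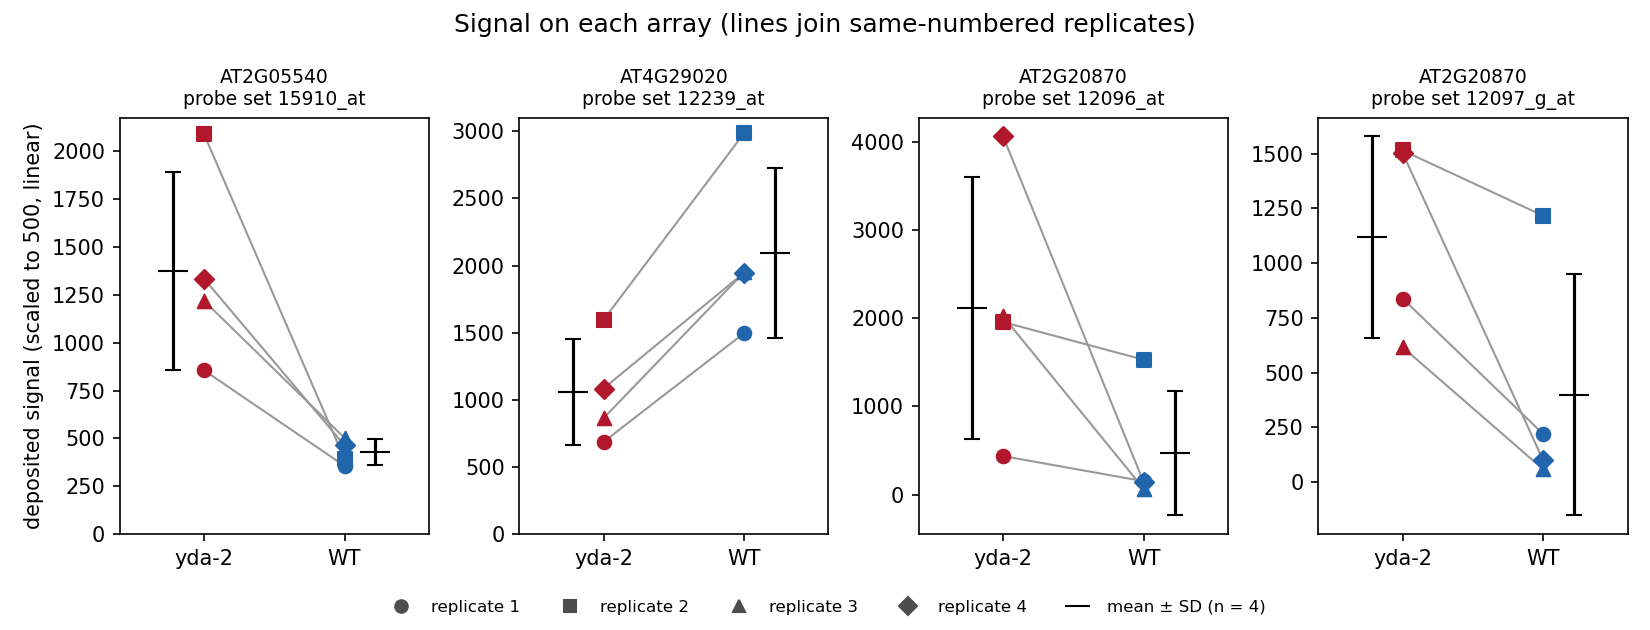
Deposited signal of each probe set on each array, yda-2 left and WT right in each panel, with gray lines joining same-numbered replicates and bars giving the mean and SD of 4 arrays. All lines slope down from yda-2 to WT for AT2G05540 and AT2G20870 and up for AT4G29020, and WT replicate 2 (square) is the high WT array in both AT2G20870 panels, at 1531.2 and 1216.6.

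AT4G29020, the other glycine-rich protein gene, was lower in yda-2 in every pair. Its signal was 686.6, 1595.6, 863.2 and 1084.2 in yda-2 replicates 1 to 4, against 1496.2, 2986.1, 1949.8 and 1946.7 in WT. The groups overlapped, since yda-2 replicate 2 lay above WT replicate 1. The means were 1057 ± 394 in yda-2 and 2095 ± 631 in WT (SD, n = 4 each). The log2 difference was -0.9998 (SE 0.31, and SE 0.17 with the pair as a block). The ratio of yda-2 to WT stayed within a narrow range over the harvests, at 0.459, 0.534, 0.443 and 0.557. Both genotypes had their highest array in replicate 2 and their lowest in replicate 1. A share of 7.1% of tested probe sets was lower in yda-2 in 4 of 4 pairs, and 9.44% were higher in 4 of 4.

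AT2G20870 had the widest spread of the 3 genes and was read by a pair of probe sets. On probe set 12096_at its signal was 437.3, 1958.9, 2024.3 and 4066.9 in yda-2 replicates 1 to 4, against 151.3, 1531.2, 66.3 and 141.5 in WT. On probe set 12097_g_at it was 838.3, 1515, 616 and 1503.7 in yda-2, against 219.4, 1216.6, 57.8 and 98.9 in WT. WT replicate 2 was far above the other WT arrays on both, and it lay above yda-2 replicate 1 on the first and above yda-2 replicates 1 and 3 on the second, so the groups overlapped. The yda-2 array was the higher of its pair in 4 of 4 pairs on both probe sets.

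The means of AT2G20870 were 2122 ± 1490 in yda-2 and 472.6 ± 706.8 in WT on 12096_at (SD, n = 4 each). On 12097_g_at they were 1118 ± 461 in yda-2 and 398.2 ± 549.9 in WT. The log2 differences were 2.78 (SE 0.85, and SE 0.66 with the block) and 2.25 (SE 0.71, and SE 0.47 with the block). Without WT replicate 2 the WT means were 119.7 ± 46.5 and 125.4 ± 84.0 (SD, n = 3), and the log2 differences were 3.67 and 3.07. Every yda-2 array then lay above every remaining WT array on both probe sets, as it did for 3.28% of all tested probe sets once that array was left out.

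The AT2G20870 ratios differed between pairs. The WT signals of replicates 3 and 4, from 57.8 to 141.5, are low and carry no detection calls, so the ratios over them are uncertain in size. On 12096_at the yda-2 signal was 2.89, 1.28, 30.5 and 28.7 times that of WT in pairs 1 to 4, and on 12097_g_at it was 3.82, 1.25, 10.7 and 15.2 times. The mean log2 difference within the pairs of replicates 1 and 2 was 0.90 on 12096_at and 1.09 on 12097_g_at. Within the pairs of replicates 3 and 4, whose arrays had the lower maxima and lower quartiles, it was 4.66 and 3.41. The part of the array ranges in this was not tested. For AT2G05540 the same values were 1.80 within replicates 1 and 2 and 1.37 within replicates 3 and 4. For AT4G29020 they were -1.002 and -0.998.

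The probe sets of AT2G20870 put the WT arrays in the same order, with replicate 2 highest, then 1, then 4, and replicate 3 lowest. In yda-2 their orders differed: 12096_at was lowest in replicate 1 and highest in replicate 4, while 12097_g_at was lowest in replicate 3 and nearly equal in replicates 2 and 4. Over the 8 arrays their log2 signals had a Pearson correlation of 0.92, and 0.83 after each genotype mean was subtracted. These correlations describe arrays that share the genotype difference and the standing-apart WT array.

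**Figure D2:**
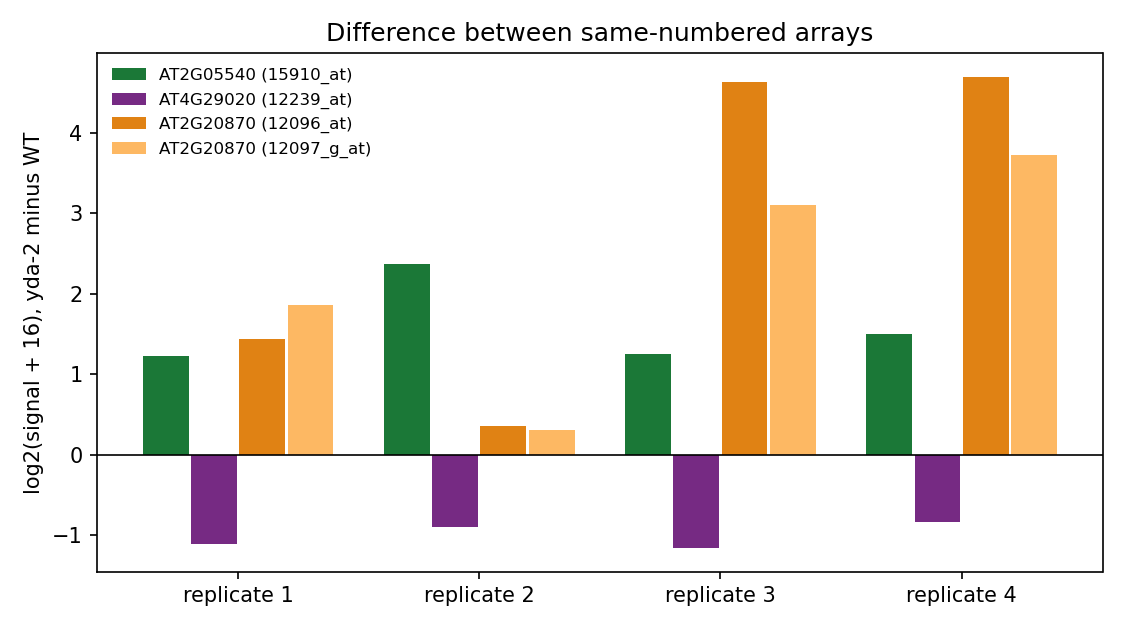
Difference of log2(signal + 16), yda-2 minus WT, between same-numbered arrays for each probe set. AT4G29020 lies between -1.16 and -0.84 in all pairs and AT2G05540 between 1.23 and 2.37, while AT2G20870 runs from 0.31 in pair 2 to 4.70 in pair 4.

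WT replicate 2 was set against the other WT arrays over all tested probe sets. On 12096_at its log2 signal was 3.21 above the next highest WT array, a gap that 2 of 4788 probe sets reached, this one included. The other was 16367_i_at, which has no gene in the table of names. On 12097_g_at the gap was 2.39, reached by 10 probe sets or 0.209%. AT4G29020 was also highest in that array, by 0.61, as large a gap as 12.2% of probe sets had. AT2G05540 was not, and WT replicate 2 minus the highest other WT array was -0.35. Without WT replicate 2 the log2 difference between genotypes was 1.55 for AT2G05540 and -0.82 for AT4G29020. The same-harvest yda-2 array was not alone in its group for AT2G20870: on the log2 scale yda-2 replicate 2 minus the highest other yda-2 array was -1.05 on 12096_at and 0.011 on 12097_g_at.

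Variation between harvests was tested separately, since the balanced design makes it independent of the genotype difference by which the genes were picked. This holds for the size of that difference over all 8 arrays, and not for its SE. Fits with an array left out are unbalanced, so it does not hold for them. The test asks whether the 4 replicate numbers differ once genotype is accounted for (limma F test, Benjamini-Hochberg adjustment over 4788 probe sets). The arrays of replicates 1 and 2 also differed in range from those of replicates 3 and 4. Differences between harvests and between arrays thus cannot be told apart in this test, and harvest here means the replicate number. Of all tested probe sets 8.29% passed an adjusted p of 0.05. None of the 4 probe sets did, with limma adjusted p = 0.436 for AT2G05540, 0.0762 for AT4G29020, and 0.231 and 0.111 for AT2G20870 on 12096_at and 12097_g_at. Before adjustment AT4G29020 (F = 7.04) and 12097_g_at (F = 5.52) were under 0.05, as were 27.7% of all tested probe sets. The pair means of AT4G29020 spanned 1.09 on the log2 scale, those of AT2G05540 0.70, and those of AT2G20870 2.67 on each probe set, against a median of 0.82 over all tested probe sets. Without WT replicate 2 the span was 1.22 for AT2G05540 (limma adjusted p = 0.0647), and 1.54 and 1.38 for AT2G20870 on 12096_at and 12097_g_at.

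The deviations of AT4G29020 had the same sign in yda-2 and WT in replicates 1 to 3. Its log2 deviation from the genotype mean was -0.54 in yda-2 and -0.44 in WT in replicate 1, and 0.66 in yda-2 and 0.55 in WT in replicate 2. In replicate 3 it was -0.22 in yda-2 and -0.058 in WT, and in replicate 4 it was 0.10 in yda-2 and -0.060 in WT. AT2G05540 in replicate 2 deviated by 0.67 in yda-2 and by -0.11 in WT. AT2G20870 on 12096_at deviated by -1.87 in yda-2 and -0.52 in WT in replicate 1, and by 0.26 in yda-2 and 2.68 in WT in replicate 2. Without yda-2 replicate 2, without which the test called 1474 of the 4788 probe sets in place of 397, both AT2G20870 probe sets passed the harvest test (limma adjusted p = 0.0153 and 0.00344). Without yda-2 replicate 4, 12097_g_at passed (limma adjusted p = 0.0463). AT2G05540 and AT4G29020 passed under none of the alternatives tried.

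**Figure D3:**
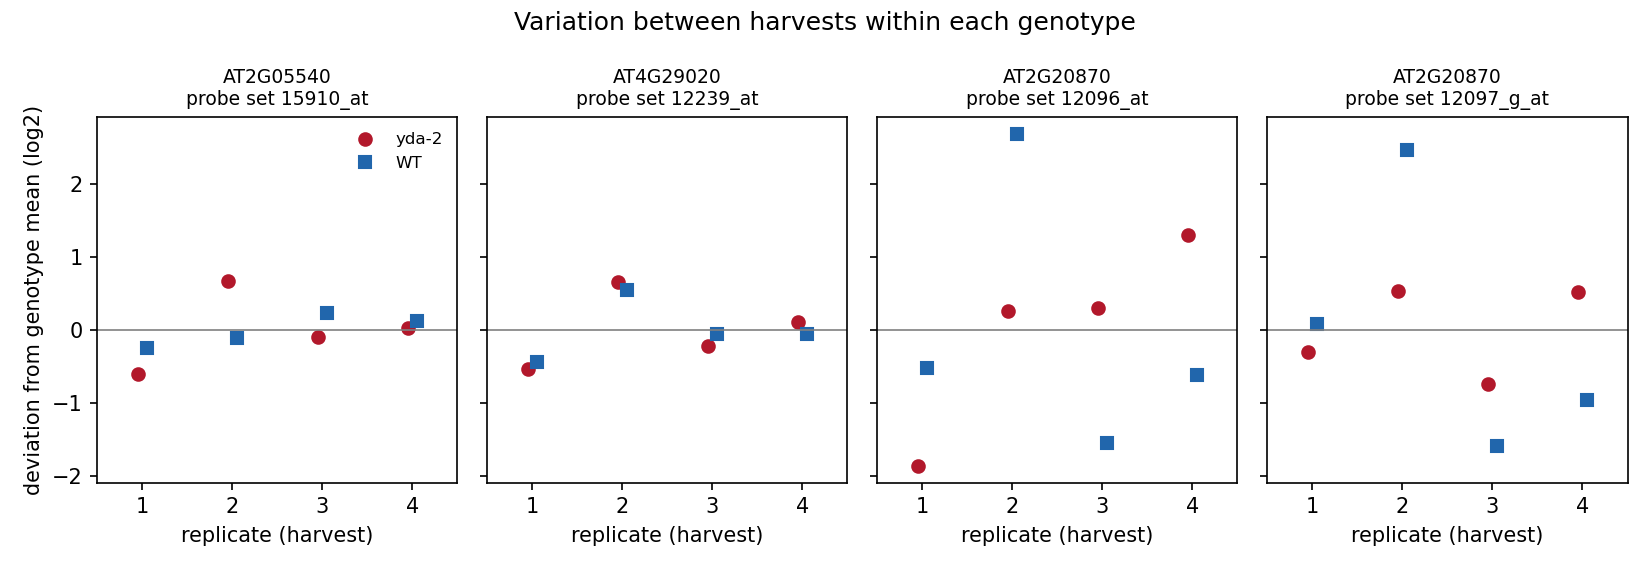
Deviation of each array's log2(signal + 16) from the mean of its genotype, by replicate number, for yda-2 (circles) and WT (squares). The deviations of AT4G29020 lie between -0.54 and 0.66, and WT replicate 2 is 2.68 and 2.47 above the WT mean for AT2G20870.

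AT2G05540 and AT4G29020 differed in opposite directions between genotypes, yet their deviations from the genotype means had a Pearson correlation of 0.73 over the 8 arrays. AT4G29020 and AT2G20870 had 0.69 on 12096_at and 0.60 on 12097_g_at, and AT2G05540 and AT2G20870 had 0.18 and -0.05. These correlations are descriptions over 8 arrays in which 4 harvests are shared. For AT2G05540 and AT4G29020 the signs of the deviations matched in every yda-2 array, and in WT in replicate 1 alone. In yda-2 replicates 1 to 4 they were -0.60, 0.67, -0.10 and 0.03 for AT2G05540, and -0.54, 0.66, -0.22 and 0.10 for AT4G29020. In WT they were -0.24, -0.11, 0.23 and 0.12 for AT2G05540, and -0.44, 0.55, -0.058 and -0.060 for AT4G29020.

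The named gene whose log2 signal was most like that of AT2G05540 over the 8 arrays, among 2032 probe sets with a single gene, was AT2G38870 (r = 0.97), a member of the potato type I protease inhibitor family. CHI, a putative chitinase gene, followed (r = 0.94), and then AT1G22690, of the gibberellin-regulated GASA-like family (r = 0.90). AT2G38870 had signals of 1260.2, 2042.2, 1629.7 and 1413.6 in yda-2, against 747.8, 838.8, 981.2 and 706.4 in WT. Its yda-2 arrays all lay above its WT arrays, as did those of 1.73% of all tested probe sets, with the highest in replicate 2 as for AT2G05540. CHI had 774.5, 1106, 1037.3 and 1336.2 in yda-2, against 267, 325.4, 455.6 and 496 in WT. CHI passed the genotype test with the block and not without it (limma adjusted p = 0.0333 and 0.145). With the block that call was lost under quantile normalization, median centring and leaving out pair 1, 3 or 4 (limma adjusted p from 0.101 to 0.310), and kept without pair 2 (limma adjusted p = 0.0146). Such likeness includes the genotype difference itself. With the genotype means subtracted, the most alike were AT4G20420, AT3G50860 and AT2G28230 (r = 0.98, 0.97 and 0.96), none of which passed the genotype test (limma adjusted p = 1.00 for each). Here and for the other genes below, each r is among the highest of 2032 probe sets over only 8 arrays. No chance level was computed for such a maximum.

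AT4G29020 was most like AT1G56190, which encodes a phosphoglycerate kinase, AT4G23740 and AT1G12080, whose product is related to vacuolar calcium-binding proteins (r = 0.91, 0.89 and 0.89). AT1G12080 had signals of 120.2, 202.3, 120.7 and 108 in yda-2, against 325.9, 417.1, 408.8 and 413 in WT, and its groups did not overlap. Every yda-2 value lay below every WT value for 0.647% of all tested probe sets. With the genotype means subtracted, AT1G16320, AT4G38710 and AT1G78890 came first, each at r = 0.97.

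AT2G20870 on 12096_at was most like Hsp70-2, a cytosolic chaperone gene (r = 0.93), CCS, the gene of the copper chaperone for superoxide dismutase (r = 0.90), and AT2G32730, which encodes a proteasome regulatory subunit (r = 0.90). Hsp70-2 also came first for 12097_g_at (r = 0.95), followed by AT4G33420, a class III peroxidase gene, and AT1G59740 (r = 0.93 for both). Hsp70-2 had signals of 596.7, 620.3, 635 and 762.4 in yda-2, against 376.3, 829.3, 304.3 and 362 in WT. It shared the high WT replicate 2 array, which for this gene was above every yda-2 array. With the genotype means subtracted, 12096_at was most like SAPX, a stromal ascorbate peroxidase gene, AT5G26830 and FATB, a plastid acyl-ACP thioesterase gene (r = 0.96, 0.96 and 0.94). For 12097_g_at the first were AT2G39420, AT2G46520 and AT4G02720 (r = 0.98, 0.98 and 0.96). The probe sets of AT2G20870 thus shared none of these 3 genes after subtraction.

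The chromosomal neighbours were read from the gene order of assembly TAIR10.1, over protein-coding genes. AT2G05540 lies next to AT2G05530, a further glycine-rich gene, in a stretch that also holds GRP-3. AT2G05530 had signals of 100.1, 138.4, 33.8 and 54.4 in yda-2, against 85.8, 192.6, 43.6 and 49.8 in WT. Its mean of 87.3 was under the filter of 100, and its groups overlapped. GRP-3, which encodes a secreted glycine-rich protein, was not analysed here.

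AT4G29020 lies between AIM1, a peroxisomal fatty acid beta-oxidation gene, and AT4G29030, also a glycine-rich gene. AT4G29030 had signals of 681, 872.7, 786 and 662.3 in yda-2, against 1118.5, 1515.6, 876 and 761.5 in WT. It was lower in yda-2 in 4 of 4 pairs, like AT4G29020 and 7.1% of all tested probe sets, but its groups overlapped. Its log2 difference was -0.46 (SE 0.26), with no call (limma adjusted p = 1.00, and 0.688 with the block). AIM1 averaged 4040 ± 895 in yda-2 and 2554 ± 853 in WT on probe set 20459_i_at (SD, n = 4 each). Its log2 difference was 0.69 there and 0.33 on 20460_s_at, neither called (limma adjusted p = 1.00 for both). Whether probes of neighbouring glycine-rich genes bind each other's transcripts was not tested.

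AT2G20870 lies in a row with AT2G20873 and EPF1, in that order. EPF1 encodes a secreted peptide that limits stomatal formation and acts upstream of YDA. EPF1 and AT2G20873 were not analysed here, nor were the genes on the other side, LIP1 and SRF1.

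Of 43 loci listed as glycine-rich proteins, beside AT2G05540 and AT4G29020, 8 had a named probe set and 6 passed the filter. The list was not checked against protein sequences, so a listed locus may fall outside the class described above. With the limma test 0 of the 6 were called higher in yda-2 and 0 lower, with or without the block, against 0.0418% called over all tested probe sets and 0.188% with the block. At an unadjusted p under 0.05 there was 1 of 6, and with the block 4 of 6, against 3.22% and 7.1% of all tested probe sets. With the block these were AT4G17620 and AT4G21620, higher in yda-2, and AT1G11850 and AT4G29030, lower. All 4 were just under the cut (limma unadjusted p from 0.0424 to 0.0493). The log2 differences of the 6 ran between -0.76 and 1.00, with 3 above 0 and 3 below and a median of -0.18, against 0.02 over all tested probe sets.

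AT4G17620 averaged 136.2 ± 9.7 in yda-2 and 70.8 ± 50.4 in WT (SD, n = 4 each), a log2 difference of 1.00 (limma adjusted p = 1.00, and 0.672 with the block). It passed the filter through its yda-2 arrays, since its WT mean alone was under the mean signal required. This gene was the only one counted above at an unadjusted p under 0.05 without the block (limma unadjusted p = 0.0472). It was also among those counted with the block (limma unadjusted p = 0.0424). The part of the filter in its difference was not tested. AT4G21620 averaged 1381 ± 508 in yda-2 and 951.4 ± 112.1 in WT, and was higher in yda-2 in 4 of 4 pairs, with a log2 difference of 0.48. AT1G11850 and AT1G04660 were lower in yda-2 in 4 of 4 pairs, with log2 differences of -0.55 and -0.76. Over all tested probe sets 9.44% were higher in 4 of 4 pairs and 7.1% lower. AT1G11850 averaged 931.3 ± 347.5 in yda-2 and 1441 ± 655 in WT. AT1G04660 averaged 150.03 ± 32.5 in yda-2 and 322.0 ± 270.3 in WT. AT1G15280 had a log2 difference of 0.11. None of the 6 passed the harvest test, the lowest limma adjusted p being 0.0913, for AT1G11850. AT4G37900, under the filter, had signals of 7.2 to 35.3 in yda-2 and 2.9 to 82.5 in WT.

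The cell wall list was built from the symbols of gene families, among them expansins, xyloglucan and cellulose enzymes, pectin methylesterases, extensins, arabinogalactan proteins, wall-associated kinases and the TBL family, and held 301 genes. A named probe set existed for 37 and 13 passed the filter. All 37 were expansin, xyloglucan enzyme, cellulose enzyme, cellulose synthase-like or TBL genes. No pectin methylesterase, extensin, arabinogalactan protein or wall-associated kinase gene had a named probe set, so the counts below do not cover those families. The limma test called 0 higher and 0 lower, with or without the block. Over all tested probe sets the calls were 0.0418%, and 0.188% with the block. At an unadjusted p under 0.05 there was 1 of 13, and 2 with the block, against 3.22% and 7.1%. The median log2 difference of the 13 was -0.14, with 5 above 0 and 8 below. CSLA03, counted above 0, passed the filter through its yda-2 arrays (mean 136.2, against 94.6 in WT). CSLC5, counted below 0, passed through its WT arrays (mean 127.3, against 92.35 in yda-2). The part of the filter in these differences was not tested. EXPA8, an expansin gene, whose products loosen the wall during growth, averaged 1237 ± 536 in yda-2 and 2296 ± 1267 in WT (SD, n = 4 each). Its log2 difference was -0.79, lower in yda-2 in 4 of 4 pairs (limma adjusted p = 1.00, and 0.337 with the block). A share of 7.1% of all tested probe sets was lower in 4 of 4 pairs.

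The other cell wall genes with the smallest p belong to the TBL family, whose characterised members add acetyl groups to wall polysaccharides. TBL37 averaged 531.1 ± 98.9 in yda-2 and 307.6 ± 31.0 in WT, a log2 difference of 0.74 (limma adjusted p = 0.943, and 0.468 with the block). Its yda-2 arrays, 434.1 to 627.4, lay above all WT arrays, 275 to 348.3, as did those of 1.73% of all tested probe sets. TBL39 had a log2 difference of 0.54, higher in 4 of 4 pairs, and TBL45 one of -0.41, lower in 4 of 4 pairs. Over all tested probe sets 9.44% were higher in 4 of 4 pairs and 7.1% lower. EXPA8 was the single gene of the list that passed the harvest test (limma adjusted p = 0.0292).

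**Figure D4:**
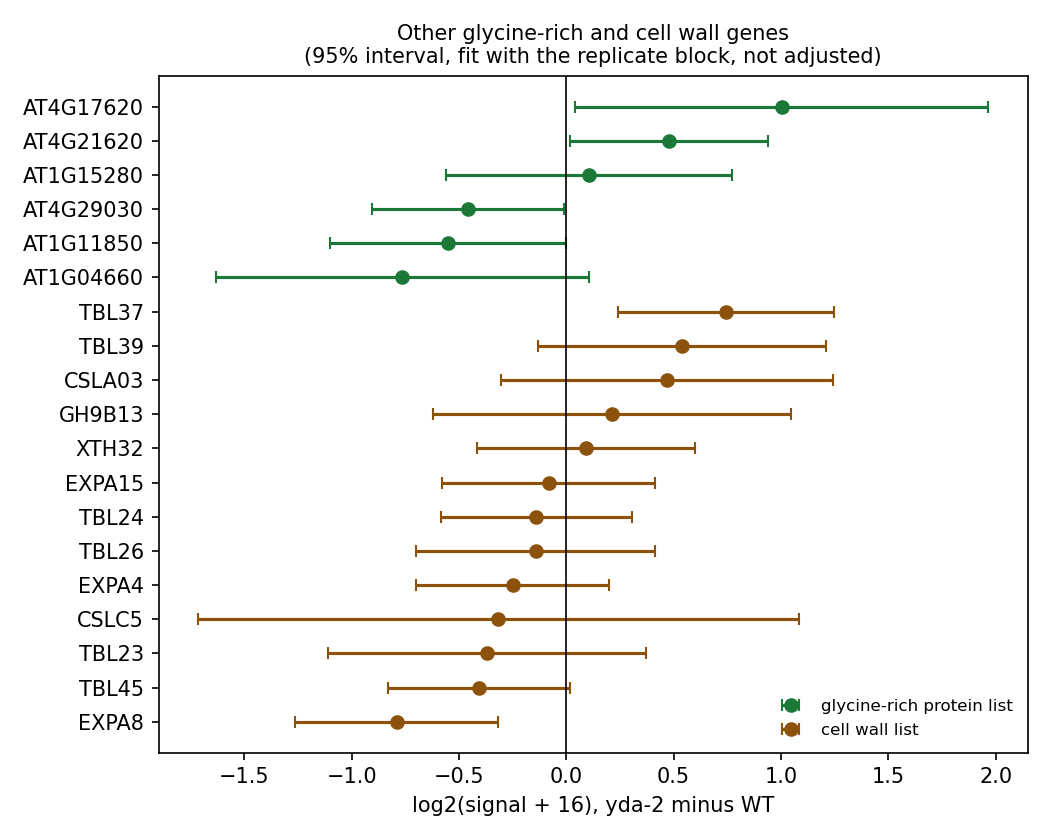
Log2 difference, yda-2 minus WT, of the 6 tested genes of the glycine-rich list and the 13 of the cell wall list, with unadjusted 95% intervals from the fit with the replicate block. The points run from -0.79 for EXPA8 to 1.00 for AT4G17620, on both sides of 0 in either list.

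In the same pairs, array controls differed by genotype. The mean log2 signal of 9 bacterial and phage control probe sets was lower in yda-2 in 4 of 4 pairs, with yda-2 minus WT between -0.58 and -0.07. This mean also differed between replicates, at 10.67 to 11.24 on the arrays of replicates 1 and 2 and 9.06 to 9.63 on those of replicates 3 and 4. The part of that step in the harvest test and in the AT2G20870 ratios was not tested. The 3' over 5' ratio of ubiquitin, a measure of RNA integrity, was higher in yda-2 in 4 of 4 pairs, by 0.34 on average on the log2 scale and by 0.0071 to 0.66 in single pairs. AT4G29020, lower in yda-2 in 4 of 4 pairs, shared the direction of the control probe sets. AT2G05540 and AT2G20870, higher in 4 of 4, shared that of the ubiquitin ratio. The controls went opposite ways in every pair, so any gene with the same sign in every pair must share a direction with one of them. The part of either control in the differences of the genes was not tested.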

How the data were processed

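RNA from 8 rosette samples was hybridized to Affymetrix AtGenome1 arrays, per the labels. The authors deposited a linear signal intensity for each probe set of each array, after scaling the average of every array to 500, per the labels. The summary method is not given in the sources used here, and the values hold no detection calls. The scaling equalizes the average and not the range of an array.

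Groups and replicate numbers were taken from titles. The 50 control probe sets were left out, and a mean of 100 or more over the 8 arrays was required, which kept 4788 probe sets (58.1%). Values were used as log2(signal + 16), a scale on which low signals change less than in truth. The genotype test used R 4.3.3 and limma 3.58.1 (eBayes with trend, two-sided, Benjamini-Hochberg, threshold 0.05) over all 8 arrays, without a block. Harvests were compared by an F test over replicate numbers with genotype in the model. Both fits were tested on simulated data. The labels give replicates as separate harvests, so the numbers were taken to pair the arrays. Deviations of same-numbered arrays from their genotype means correlated at 0.596, 0.296, 0.324 and 0.577. Differently numbered arrays were not compared in this way, so these correlations cannot show that the numbers match. Blocked values are printed where they move a count or change a call, and for some named genes.

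The genes, lists and tests were chosen with earlier results of these data known. A glycine-rich list planned from protein composition could not be made here. A list of loci known as glycine-rich stood in, written after the table of gene names was seen and not checked against sequences. Names come from the platform's annotation through gene identifiers, 3784 of 3794 single-gene probe sets matching the TAIR10.1 gene table. Named genes are the 3 members, the 3 probe sets of another gene with the highest correlation to each over the 8 arrays and after subtracting genotype means, all measured glycine-rich genes, and the 4 cell wall genes with the smallest blocked p. Neighbouring genes were chosen by position. Photosynthesis genes are named for their pair counts, and CSLA03 and CSLC5 for the filter alone. Coordinates are not given. Alternatives covered the pseudocount, filter, normalization, trend, block and leaving out arrays or pairs. Figures were drawn with matplotlib 3.10.9.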

Additional observations from a re-analysis of the deposited data

Results flagged for a closer look

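AT2G20870 had 1 WT array far from the rest of its group on both of its probe sets. The signal of WT replicate 2 was 1531.2 on 12096_at, with a gap to the next WT array of 0.942 of the group's range. On 12097_g_at it was 1216.6, with a gap of 0.861 of the range. Both exceed Dixon's critical value for 4 samples. On the log2(signal + 16) scale the gaps were 0.758 and 0.588 of the range, below that value. Of 8 groups of 4 arrays examined, 2 stood out, and both are readings of the same array and gene. Chance alone marks about 1 group in 20.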

How the results depend on the processing

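The log2 differences of AT2G05540, AT4G29020 and both AT2G20870 probe sets kept their sign under all 24 alternatives each. They ran between 1.32 and 1.80, between -1.22 and -0.82, between 0.90 and 4.66 (12096_at) and between 1.09 and 3.41 (12097_g_at). Leaving out 1 array gave 1.36 to 1.79, -1.22 to -0.82, 2.26 to 3.67 and 1.72 to 3.07. With the replicate block and 1 pair left out they ran from 1.32 to 1.71, -1.05 to -0.95, 2.14 to 3.59 and 1.76 to 2.89. The value of 12096_at moved by more than the spread between replicates within the pairs of replicates 1 and 2 (0.90) and of replicates 3 and 4 (4.66). Both extremes for 12097_g_at also came from these pairs.

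The genotype test called 2 probe sets over the whole array, 9 with the replicate block, 0 with a pseudocount of 1 or a filter of 200, and 1 without a filter, with quantile normalization or with median centring over all probe sets without controls. Leaving out 1 array gave 0 to 2. The block with 1 pair left out gave 0 to 28, the 28 without pair 2, which holds WT replicate 2. With the block, after the data were seen, quantile normalization gave 0 and median centring 3. Of 54 other probe sets of likeness, list and neighbouring genes, the block changed the call of CHI alone. Calls in the glycine-rich and cell wall lists stayed at 0 in all 22 alternatives each. The harvest test called 397 probe sets, 230 without a filter, 84 with quantile normalization, 138 without the trend, and 31 to 1474 without 1 array. AT2G20870 passed it without yda-2 replicate 2 (spreads of 4.28 on 12096_at and 3.96 on 12097_g_at), and 12097_g_at also without yda-2 replicate 4 (2.70), with spreads over single arrays left out from 1.54 to 4.28 and from 1.38 to 3.96. The causes were not tested. A glycine share of 30% was planned and not run, for want of protein sequences. Signals near background have no detection calls, which limits the WT values of AT2G20870 in replicates 3 and 4.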
